A study of Homo sapiens with 15 samples.

Results

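The genes described here are 10 nucleic acid sensors and close partners of theirs that lie upstream of interferon, out of 60649 genes listed for each library. They were chosen by name for their place in the pathway, but with earlier results of these data known. Shares of them set against all genes are thus a description only. They comprise the RNA sensors IFIH1, DHX58 and TLR3, the DNA and Z-form nucleic acid sensors IFI16 and ZBP1 and the adaptor MAVS. The ubiquitin ligase TRIM25, the kinase TBK1, the transcription factor IRF3 and the RNA editing enzyme ADAR complete the set. Long double-stranded RNA in the cytosol is bound by MDA5, the product of IFIH1, which signals through MAVS on mitochondria to TBK1 and IRF3, and IRF3 then enters the nucleus and turns on interferon genes. TLR3 reads double-stranded RNA inside endosomes, and ADAR edits the cell's own double-stranded RNA so that MDA5 does not respond to it. Keratinocytes use these sensors against viruses, and several of the sensor genes are themselves induced by interferon.

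RNA was measured by bulk sequencing in HSC-5 cells, a line of human cutaneous squamous cell carcinoma, a cancer of keratinocytes. The cells expressed Cas9 and received a single guide RNA (sgRNA) by lentivirus, and the comparisons ask what loss of PRMT5, an arginine methyltransferase, or of WDR77, its WD-repeat partner, does to gene expression. There were 5 conditions of 3 libraries each, labelled as biological replicates: sgNeg, the control, with the genotype WT; sgPRMT5-1 and sgPRMT5-2, with the genotype PRMT5 Knockout; and sgWDR77-1 and sgWDR77-2, with the genotype WDR77 Knockout. Figure captions of the paper give sgNeg as an empty vector control. By its results section the PRMT5 sgRNAs were aimed at exons of the PRMT5 catalytic domain and the WDR77 sgRNAs at the first WD repeat of WDR77. The labels give Neomycin as the treatment of all 15 libraries, controls included. The methods name G418 selection for depletion and rescue assays of cell growth, and their section on RNA sequencing names no selection. Whether a line was a clone or a pool is not stated, and the series text speaks of knockdown where the labels speak of knockout. The labels do not say which step was repeated for each replicate, so p-values measure the spread between these samples.

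Each library held between 5146711 and 6730428 reads counted in genes. Levels are given as CPM, the count of a gene for each 1000000 counts of the library total scaled by TMM. Differences are log2 fold changes from limma voom, fitted to the 14061 genes with a mean scaled count of at least 3, with Benjamini-Hochberg adjusted p-values over all of those genes; a gene is said to rise or fall where its adjusted p is under 0.05. Comparisons of a knockout average its 2 sgRNAs, with 6 libraries against the 3 of sgNeg, and all comparisons with sgNeg share those 3 control libraries. Of the 10 genes, 9 passed the filter on low counts, and ZBP1 did not.

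The keratinocyte identity of the line was visible in KRT17, at 690.4 to 1453 CPM, and in TP63, at 310.9 to 528.1 CPM, but KRT14 had only 1 to 4 counts per library. KRT5 fell in every knockout condition: from a control mean of 655.7 CPM it went to 39.97 CPM with sgWDR77-1, 55.9 CPM with sgPRMT5-2, 91.3 CPM with sgWDR77-2 and 270.3 CPM with sgPRMT5-1. DSG3 also fell with each sgRNA, from 55.4 CPM in sgNeg to between 27.9 CPM with sgWDR77-1 and 39.4 CPM with sgPRMT5-1. With sgPRMT5-1 that call (adjusted p = 0.0307) ended in 6 of 22 alternatives (up to 0.145), among them leaving out the second or the third sgNeg or the second or the third sgPRMT5-1 library. KRT17 went the other way with sgWDR77-2, where it rose by 0.83 (adjusted p = 2.64e-06; 1431 against 806.8 CPM), and in the WDR77 knockout as a whole it rose by 0.41 (0.00121). That average rested on sgWDR77-2, since with sgWDR77-1 the difference of KRT17 was −0.0017 (adjusted p = 0.994; 805.0 CPM). TP63 and ITGA6 passed in no contrast. The summed level of the 6 keratinocyte markers, of which KRT17 was the most abundant and none was at 0, lay between 1341 CPM in a sgPRMT5-2 library and 2351 CPM in a sgNeg library. All 4 markers of plasmacytoid dendritic cells, the leukocytes best known for making interferon, were at 0 in every library. The 5 leukocyte markers summed to at most 1.83 CPM, with CD14 the most abundant and CD3E and MS4A1 at 0. CD68, another of these, had 0 to 2 counts, but 85.6% of its exon bases are shared with other listed genes, so that reads there could be left out as ambiguous. The 6 fibroblast markers summed to between 6.53 and 16.2 CPM, with COL1A1 the most abundant and COL1A2 at 0, and the 5 melanocyte markers to between 2.55 and 7.48 CPM, with PMEL the most abundant and TYR and DCT at 0.

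Some libraries stood apart. The first replicate of sgWDR77-1 departed most from its own group, with an SD over genes of 0.325 log2 units, where the others lay between 0.158 and 0.243. The second replicate of sgNeg had the largest share of reads outside annotated genes, 7.16%, and the largest mitochondrial share, 2.54%. The second and the third sgWDR77-1 libraries came next, with 6.04% and 5.70% outside genes and 2.26% and 2.11% mitochondrial, where the remaining libraries had at most 4.26% and 1.73%. The 3 endothelial markers summed to 34.2, 31.3 and 36.1 CPM in the sgWDR77-1 libraries and to at most 24.9 CPM in any other library. Nearly all of that sum was CDH5, which rose in sgWDR77-1 by 0.80 (adjusted p = 0.00325, limma voom), while PECAM1 had at most 3 counts and VWF between 1 and 21. With sgPRMT5-2, VWF fell by 2.28 (adjusted p = 0.00389) and PMEL fell by 1.41 (0.0162), from control means of 2.85 and 4.60 CPM, and COL1A1 fell by 0.65 (0.0477). Over both PRMT5 sgRNAs VWF fell by 1.90 (adjusted p = 0.00233) and PMEL fell by 1.12 (0.0185; up to 0.0821 without the first or the second sgNeg or the second sgPRMT5-2 library). With sgPRMT5-2 the call for PMEL ended without the first sgNeg or the second sgPRMT5-2 library (adjusted p up to 0.122), and that for COL1A1 in 10 of 22 alternatives (up to 0.19), 7 of them with 1 library left out, namely the first or the second sgNeg, the third sgPRMT5-1, the first or the second sgPRMT5-2, the second sgWDR77-1 or the third sgWDR77-2. The part of KRT5 levels, of these markers or of library quality in the results for the sensors was not tested, but values without single libraries are given where they change a call.

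Both targets were read first, since they check the labels. PRMT5 stood at 59.1, 49.6 and 67.8 CPM in sgNeg, at 33.0, 35.8 and 41.4 CPM in sgPRMT5-1, and at 44.2, 44.5 and 39.4 CPM in sgPRMT5-2. All PRMT5 knockout libraries were thus below all controls, and the gene fell by 0.67 with sgPRMT5-1 (adjusted p = 0.0057) and by 0.45 with sgPRMT5-2 (adjusted p = 0.0114). WDR77 stood at 125.1, 113.7 and 119.2 CPM in sgNeg, at 30.9, 52.0 and 53.3 CPM in sgWDR77-1, and at 26.6, 24.9 and 22.0 CPM in sgWDR77-2. WDR77 fell by 1.43 with sgWDR77-1 (adjusted p = 2.01e-06) and fell by 2.29 with sgWDR77-2 (adjusted p = 6.89e-09). It was lower with sgWDR77-2 than with sgWDR77-1 by a log2 difference of −0.85 (adjusted p = 0.0157), a call that ended without the first or the second sgWDR77-2 library and when only the libraries compared were fitted (adjusted p up to 0.177). The level of RNA does not measure the edited protein, and 28.2% of the PRMT5 exon bases are shared with PRMT5-AS1 and 28.4% of those of WDR77 with other listed genes.

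Compared per kilobase of exon, so that genes of different length can be set side by side, the members spanned a wide range. ADAR was the most abundant, at a mean of 55.1 CPM per kb over the 15 libraries, followed by IFI16 at 52.8. TRIM25, at 11.3 CPM per kb, MAVS at 9.75 and IFIH1 at 9.15 came next. IRF3 at 7.26, TBK1 at 7.03, TLR3 at 4.37 and DHX58 at 3.30 CPM per kb were the lowest of the 9 tested members, and ZBP1 was at 0.00794. The level of DHX58 rested on 30 to 113 counts per library, that of IRF3 on 56 to 196, and that of ADAR on 3343 to 4602.

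**Figure D1:**
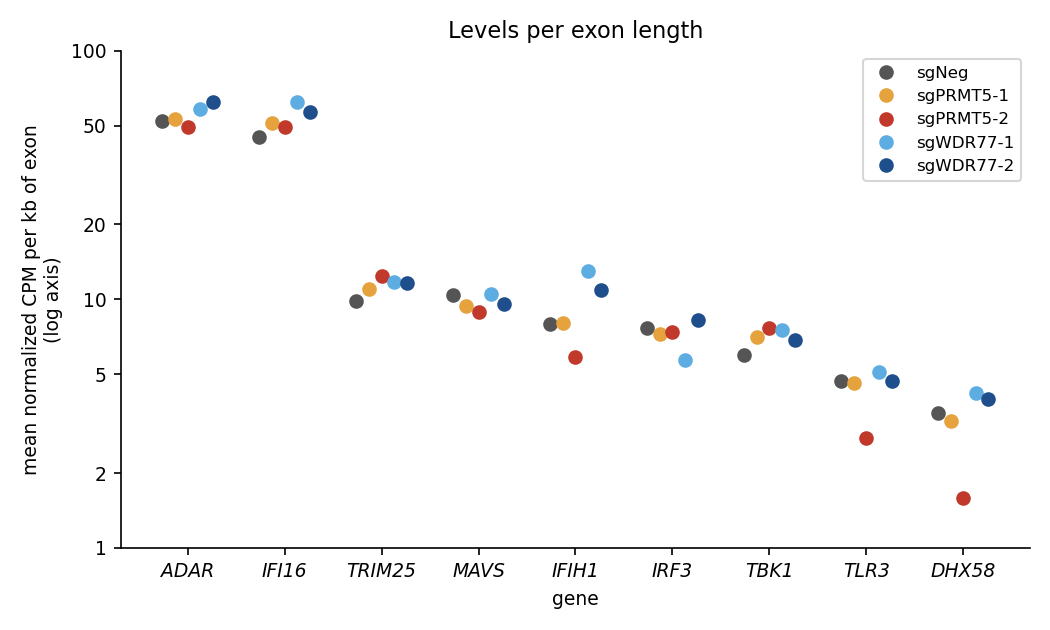
Mean level per kilobase of exon (y axis, CPM per kb, log axis) of the 9 tested members (x axis), with 1 point for each of the 5 conditions, the mean of its 3 libraries. ADAR and IFI16 lie highest, between 41.2 and 78.9 CPM per kb in single libraries, the other members lie lower, and ZBP1 is not shown.

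Over the 5 conditions, 5 of the 9 tested members differed, namely IFIH1, TLR3, DHX58, IFI16 and ADAR, where 35.8% of all tested genes did. The 3 RNA sensors carried the smallest values, with limma F test adjusted p of 3.5e-06 for IFIH1, 0.00026 for TLR3 and 0.000452 for DHX58. IFI16 and ADAR were close to the threshold (adjusted p = 0.0339 and 0.0416). TBK1 (0.0582), TRIM25 (0.125), IRF3 (0.161) and MAVS (0.206) did not pass. Leaving out 1 library never ended the call for the 3 RNA sensors. It ended that for IFI16 in 7 of 15 cases (adjusted p of 0.0513 to 0.0939), namely without any sgNeg, any sgPRMT5-2 or the second sgWDR77-2 library, and a fit with no filter on low counts ended it too (0.0568). For ADAR it ended the call in 11 of 15 (0.0512 to 0.128), that is in all but those without the first or the second sgPRMT5-1 or the first or the third sgWDR77-1 library, and limma-trend ended it as well (0.0598). TRIM25 and TBK1 passed without the first sgWDR77-1 library (0.0188 and 0.0239), IRF3 and TBK1 without the third (0.0341 and 0.0287), and MAVS with scaling by library totals alone (0.0411). Since these are bulk samples, fewer cells expressing a gene and less of its RNA per cell cannot be told apart.

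**Figure D2:**
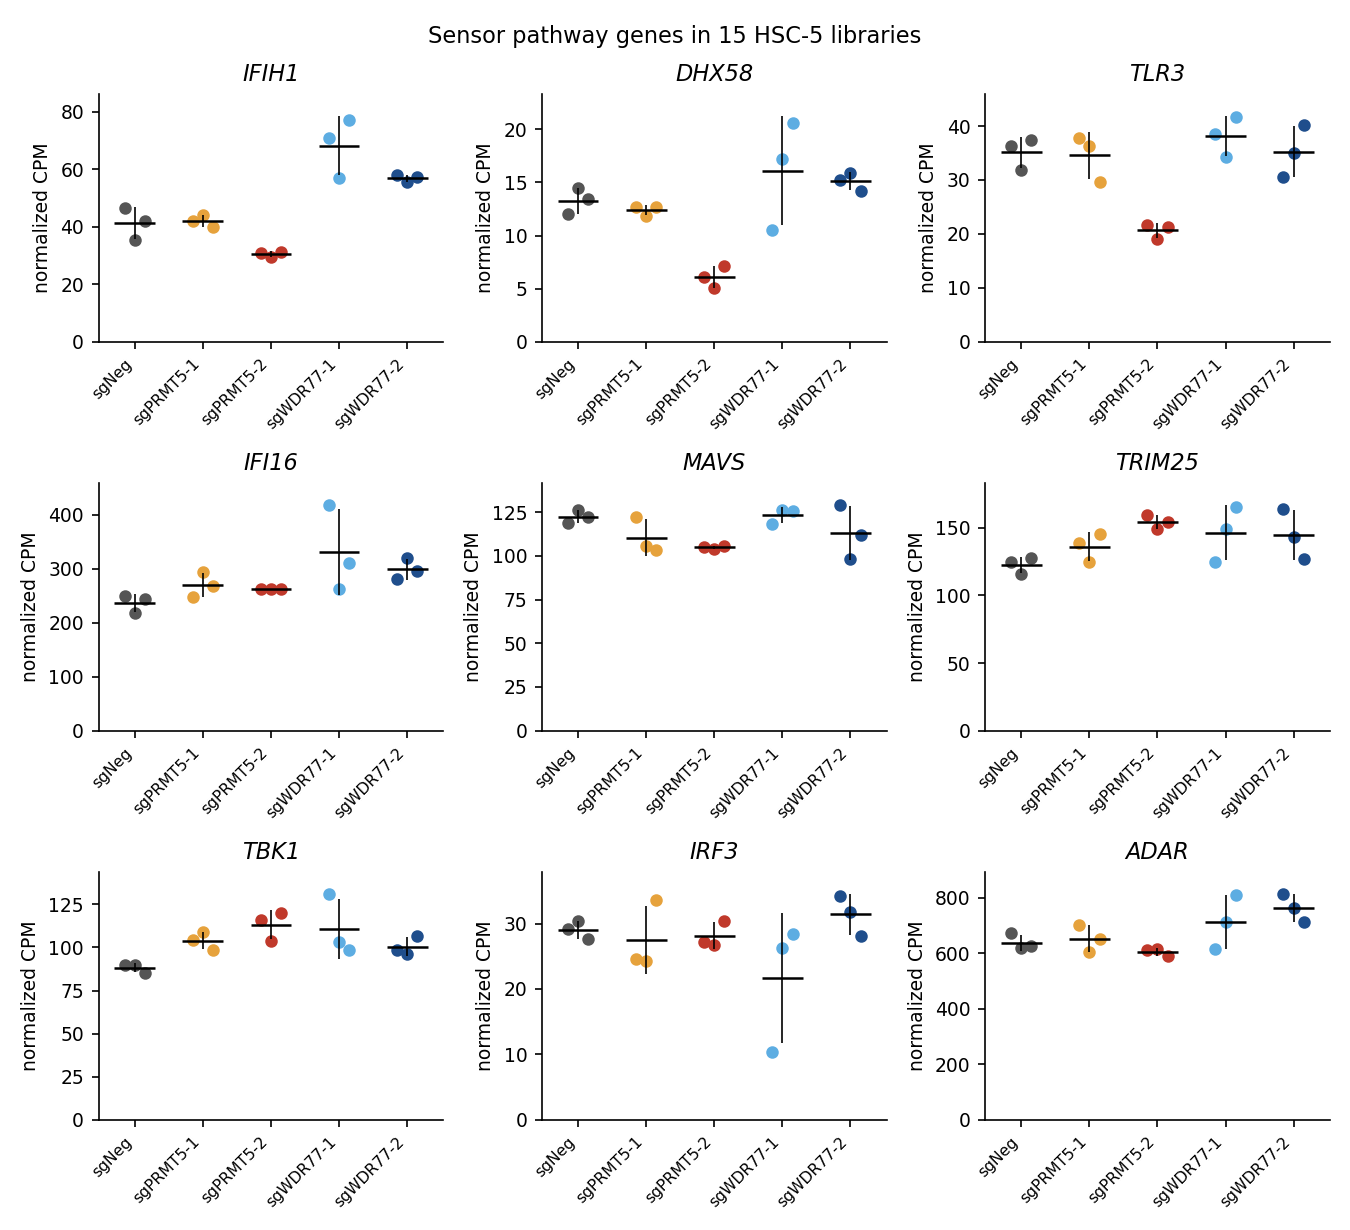
Level (y axis, CPM from 0, own scale in each panel) of the 9 tested members by condition (x axis), with points for libraries, a horizontal bar for the mean of 3 and a vertical line for the SD; ZBP1 is not shown. The sgPRMT5-2 libraries are the lowest for IFIH1, DHX58 and TLR3, and the WDR77 knockout libraries are the highest for IFIH1.

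IFIH1 encodes MDA5, the helicase that senses long double-stranded RNA. The gene, ENSG00000115267.9, lies at chr2:162267074-162318684 on the minus strand (GRCh38, GENCODE 44) and has 16 exons, none of them shared with another listed gene. Its RNA stood at 46.6, 35.5 and 42.1 CPM in sgNeg, at 41.9, 44.1 and 39.9 CPM in sgPRMT5-1, and at 30.8, 29.4 and 31.3 CPM in sgPRMT5-2. In the other knockout it stood at 70.8, 56.8 and 77.0 CPM in sgWDR77-1 and at 58.0, 55.5 and 57.3 CPM in sgWDR77-2. All 6 WDR77 knockout libraries were above every other library, all 3 sgPRMT5-2 libraries were below every other library, and the sgPRMT5-1 libraries lay among the controls.

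The order of the means ran from sgPRMT5-2 (30.5 ± 0.979 CPM, SD, n = 3) through sgNeg (41.4 ± 5.56 CPM) and sgPRMT5-1 (42.0 ± 2.12 CPM) to sgWDR77-2 (56.9 ± 1.28 CPM) and sgWDR77-1 (68.2 ± 10.3 CPM). IFIH1 rose in the WDR77 knockout by 0.59 (95% interval 0.37 to 0.81, adjusted p = 0.00083). By sgRNA it rose by 0.72 with sgWDR77-1 (SE 0.12, adjusted p = 0.00053) and by 0.47 with sgWDR77-2 (SE 0.12, adjusted p = 0.0263). With sgPRMT5-2 it fell by 0.43 (SE 0.13, adjusted p = 0.0154), and with sgPRMT5-1 the difference from sgNeg was 0.03 (interval −0.23 to 0.29, adjusted p = 0.932). The PRMT5 knockout as a whole did not differ from sgNeg past the threshold (−0.20, interval −0.43 to 0.03, adjusted p = 0.201). With 1 library left out that difference lay between −0.32 and −0.135 (adjusted p of 0.0785 to 0.505). The PRMT5 knockout was lower than the WDR77 knockout by a log2 difference of −0.79 (interval −0.97 to −0.61, adjusted p = 1.17e-06). The neighbours sgNeg and sgPRMT5-1 did not differ beyond their spread, and the difference between the 2 WDR77 sgRNAs did not pass the threshold (−0.25, interval −0.49 to −0.0093, adjusted p = 0.245). The fall with sgPRMT5-2 missed the threshold without the first sgNeg library (adjusted p = 0.0708), and the rise with sgWDR77-2 did so in 6 of 15 cases (0.0509 to 0.171), namely without the second or the third sgNeg, the second sgPRMT5-2 or any sgWDR77-2 library, and with no filter on low counts (0.055).

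Because several sensor genes are themselves targets of interferon, the promoters of the members were searched for the core of the interferon-stimulated response element (ISRE), spelled GAAANNGAA, and for the GAS element, spelled TTCNNNGAA, on both strands. RefSeq promoters (GRCh38.p14, 250 bases before to 50 after a start site) matched 7 of the 10 members by symbol, and DHX58, IRF3 and ZBP1 had no entry. Of all 35116 promoters of that length, 8.11% held the ISRE core and 7.66% the GAS element. The ISRE core occurred in IFIH1, IFI16 and TLR3, and GAS in TLR3 alone; neither occurred in ADAR, TBK1, TRIM25 or MAVS. The 3 stretches that hold the ISRE core are shown 5′ to 3′ on the strand of the gene, with bases of the core matches in capitals, since IFIH1, TLR3 and IFI16 are among the members that differed over the conditions (DHX58, another of these, could not be searched): IFIH1 at chr2:162318687-162318858 (minus strand), TLR3 at chr4:186069143-186069161 (plus strand) and IFI16 at chr1:159009823-159009851 (plus strand).
IFIH1: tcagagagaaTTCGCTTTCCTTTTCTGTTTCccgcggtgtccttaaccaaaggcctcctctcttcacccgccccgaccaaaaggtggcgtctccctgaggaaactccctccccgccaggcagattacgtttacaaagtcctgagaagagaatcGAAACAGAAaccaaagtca
TLR3: aagctttactTTCACTTTC
IFI16: caggaaactgTTCATTTTCtctgactaac
IFIH1 held 4 core matches, of which 3 overlap one another on the opposite strand and 1 stands on the strand of the gene nearer to the start. TLR3 held 1 match at the start site itself and 2 GAS matches farther upstream, with no overlap between the elements. IFI16 held 1 match, in the promoter of 1 of its 2 listed start sites. A match of letters is not a binding site, and its absence says only that these letters are not in the window.

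**Figure D3:**
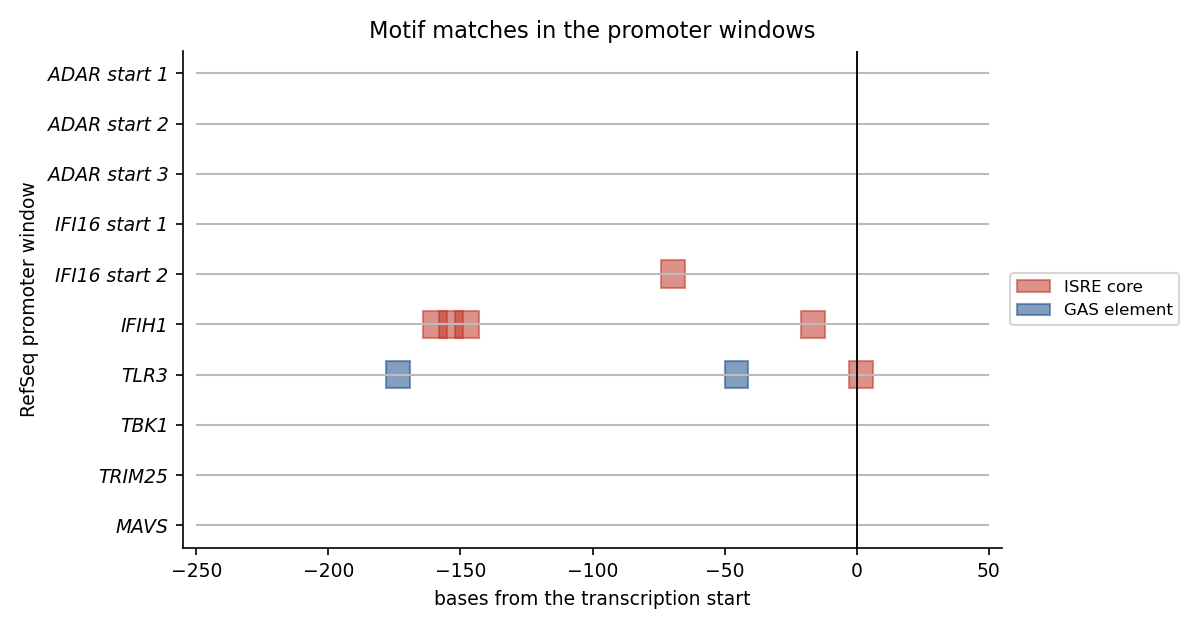
Matches to the ISRE core and the GAS element, drawn as boxes, in 10 promoter windows of 7 members (x axis, bases from the start site; 1 line for each start site). IFIH1 holds 4 ISRE core matches, TLR3 holds 1 beside 2 GAS matches, IFI16 holds 1, and ADAR, TBK1, TRIM25 and MAVS hold none.

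DHX58 encodes LGP2, a relative of MDA5 without its signalling domains that tunes how MDA5 binds RNA. The gene (ENSG00000108771.13) lies at chr17:42101404-42112714 on the minus strand and has 14 exons. It stood at 12.0, 14.5 and 13.4 CPM in sgNeg, at 12.7, 11.9 and 12.7 CPM in sgPRMT5-1, and at 6.06, 5.10 and 7.11 CPM in sgPRMT5-2. The WDR77 knockout gave 10.5, 17.2 and 20.6 CPM with sgWDR77-1 and 15.2, 15.9 and 14.2 CPM with sgWDR77-2. The 3 sgPRMT5-2 libraries were below all the others. The sgPRMT5-1 and sgWDR77-2 libraries each overlapped the controls but not each other, and the sgWDR77-1 libraries spread over the range of all 3.

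The lowest mean of DHX58 was that of sgPRMT5-2 (6.09 ± 1.00 CPM, SD, n = 3), against a control mean of 13.3 ± 1.23 CPM. The other means were 12.4 ± 0.458 CPM in sgPRMT5-1, 15.1 ± 0.843 CPM in sgWDR77-2 and 16.1 ± 5.13 CPM in sgWDR77-1. DHX58 fell by 1.13 with sgPRMT5-2 (95% interval −1.61 to −0.64, adjusted p = 0.00103), while sgPRMT5-1 differed from sgNeg by −0.10 (interval −0.51 to 0.31, adjusted p = 0.849). The 2 PRMT5 sgRNAs differed from each other by −1.03 (SE 0.24, adjusted p = 0.00988), a call that ended without the first or the second sgPRMT5-2 library (adjusted p = 0.0503 and 0.0723). Averaged over both sgRNAs, DHX58 fell by 0.61 in the PRMT5 knockout (SE 0.18, adjusted p = 0.0191; 0.0907 without the second sgNeg library), and it was lower there than in the WDR77 knockout by −0.82 (interval −1.13 to −0.50, adjusted p = 0.000477). In the WDR77 knockout the difference from sgNeg was 0.21 (interval −0.14 to 0.56, adjusted p = 0.526). Without the first sgWDR77-1 library, the lowest of that condition, the difference between sgWDR77-1 and sgNeg was 0.51 (adjusted p = 0.0428) where all libraries gave 0.23 (adjusted p = 0.515), and without the third, the highest, it was 0.02 (0.965).

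TLR3 encodes the endosomal receptor for double-stranded RNA. The gene (ENSG00000164342.13) lies at chr4:186068911-186088073 on the plus strand and has 5 exons. It stood at 36.2, 31.9 and 37.4 CPM in sgNeg, at 37.7, 36.3 and 29.6 CPM in sgPRMT5-1, and at 21.6, 19.04 and 21.3 CPM in sgPRMT5-2. The WDR77 knockout libraries gave 38.6, 34.2 and 41.6 CPM with sgWDR77-1 and 30.6, 35.0 and 40.1 CPM with sgWDR77-2. The sgPRMT5-2 libraries were again below all the others, and the other 4 conditions overlapped.

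From the lowest mean to the highest, TLR3 stood at 20.7 ± 1.41 CPM (SD, n = 3) in sgPRMT5-2, 34.6 ± 4.34 CPM in sgPRMT5-1, 35.2 ± 2.89 CPM in sgNeg, 35.3 ± 4.77 CPM in sgWDR77-2 and 38.2 ± 3.70 CPM in sgWDR77-1. TLR3 fell by 0.76 with sgPRMT5-2 (95% interval −1.05 to −0.47, adjusted p = 0.000335). It was lower with sgPRMT5-2 than with sgPRMT5-1 by −0.74 (interval −1.03 to −0.44, adjusted p = 0.00226), and no single library ended either call. Differences from sgNeg were −0.02 with sgPRMT5-1 (interval −0.29 to 0.24), 0.12 with sgWDR77-1 (interval −0.15 to 0.39) and 0.00 with sgWDR77-2 (interval −0.27 to 0.27), none past the threshold (adjusted p = 0.944, 0.628 and 0.995). Averaged over both PRMT5 sgRNAs, TLR3 fell by 0.39 (adjusted p = 0.0175; 0.0554 without the first sgNeg library), and it was lower there than in the WDR77 knockout by −0.45 (SE 0.10, adjusted p = 0.00146).

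IFIH1, DHX58 and TLR3 thus fell with sgPRMT5-2, and each was lower with it than with sgPRMT5-1. For IFIH1 the test between the 2 PRMT5 sgRNAs gave −0.46 (SE 0.13, adjusted p = 0.0328), a call that ended in 5 of 15 cases (adjusted p of 0.0775 to 0.128), namely without the first or the second sgPRMT5-1 or any sgPRMT5-2 library, and with no filter on low counts (0.069). The RNA of the target itself was no lower with sgPRMT5-2 (42.7 CPM) than with sgPRMT5-1 (36.8 CPM), and that difference was 0.22 (interval −0.06 to 0.51, adjusted p = 0.33). That RNA does not measure the edited protein, and the part of PRMT5 loss in the difference between the sgRNAs was not tested. Of all genes, 31% passed against sgNeg with sgPRMT5-2 and 2.87% with sgPRMT5-1. KRT5 also separated these sgRNAs, being lower with sgPRMT5-2 by −2.26 (adjusted p = 1.17e-08). Against sgNeg, DSG3, VWF, PMEL and COL1A1 were lower with sgPRMT5-2 as well, but none of these differed between the PRMT5 sgRNAs past the threshold (adjusted p = 0.0795, 0.506, 0.488 and 0.502), and their part and that of KRT5 in the sensor results was not tested.

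**Figure D4:**
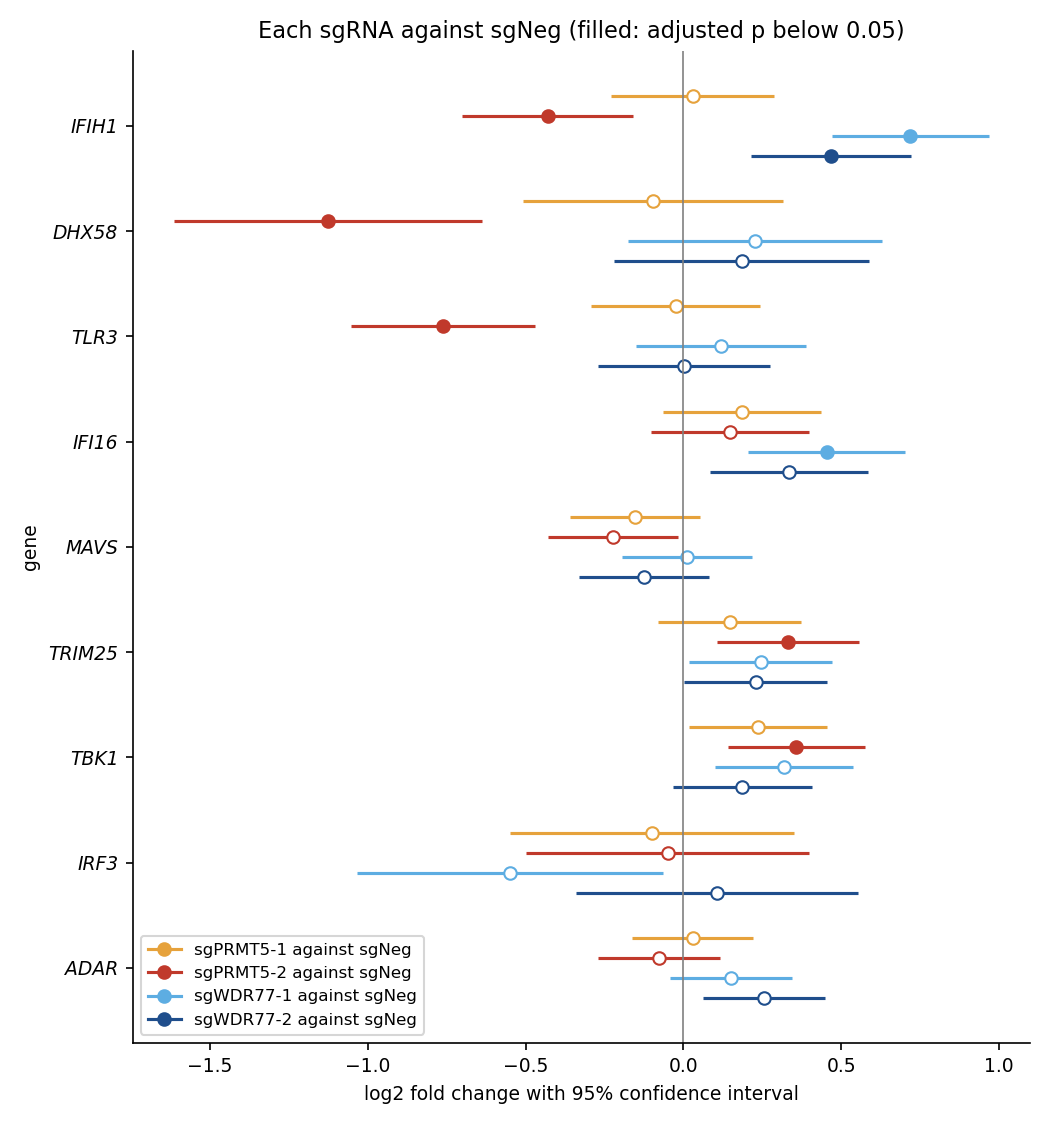
Log2 fold change against sgNeg (x axis) of the 9 tested members (y axis) for each of the 4 sgRNAs, with 95% intervals from limma voom as bars; filled points have an adjusted p under 0.05. IFIH1, DHX58 and TLR3 are lower with sgPRMT5-2 and near 0 with sgPRMT5-1, and IFIH1 is higher with both WDR77 sgRNAs.

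IFI16 encodes a DNA sensor found in the nucleus and the cytosol that acts with the STING pathway. The gene (ENSG00000163565.19) lies at chr1:158999968-159055155 on the plus strand and has 12 exons. It stood at 249.6, 218.1 and 243.8 CPM in sgNeg, at 248.3, 293.0 and 268.3 CPM in sgPRMT5-1, and at 262.9, 261.9 and 261.9 CPM in sgPRMT5-2. In the WDR77 knockout it stood at 417.8, 263.2 and 310.0 CPM with sgWDR77-1 and at 281.5, 319.6 and 295.4 CPM with sgWDR77-2. All 6 WDR77 knockout and all 3 sgPRMT5-2 libraries were above the 3 controls, and the first sgWDR77-1 library was the highest. The WDR77 knockout libraries overlapped those of sgPRMT5-1.

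IFI16 rose in the WDR77 knockout by 0.39 (95% interval 0.18 to 0.61, adjusted p = 0.0196). With sgWDR77-1 it rose by 0.45 (SE 0.12, adjusted p = 0.0193), and with sgWDR77-2 the difference was 0.33 (SE 0.12, adjusted p = 0.115). Differences from sgNeg were 0.19 with sgPRMT5-1 (adjusted p = 0.451) and 0.15 with sgPRMT5-2 (adjusted p = 0.373), and the PRMT5 knockout was below the WDR77 knockout by −0.23 (adjusted p = 0.0488). These calls were near the threshold: the rise in the WDR77 knockout ended without any 1 of the sgNeg libraries or the second sgWDR77-2 library (adjusted p of 0.0507 to 0.116), and that with sgWDR77-1 without the second or the third sgNeg library (0.0638 to 0.074). Without the first sgWDR77-1 library, the highest of all, the rise with sgWDR77-1 went from 0.45 to 0.28 (adjusted p = 0.0496). The difference between the knockouts ended in 8 of 15 cases (0.0519 to 0.112), namely without the third sgNeg, the first or the third sgPRMT5-1, any sgPRMT5-2 or the second or the third sgWDR77-2 library, and with no filter, limma-trend or only the libraries compared (0.0716, 0.0516 and 0.0642). Fitting only the libraries compared ended the rise too (adjusted p = 0.0684 for the knockout and 0.125 for sgWDR77-1) but brought sgWDR77-2 past the threshold (0.0371), as leaving out the first sgWDR77-1 library did (0.00945). In sgWDR77-1, IFI16 moved beside the higher CDH5 given earlier, whose part was not tested.

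ZBP1, which senses Z-form nucleic acids and can start necroptosis, was not measurable at this depth. It had 4 counts in all, in 3 of the 15 libraries, with at most 2 in any library and 0 in the other 12. A count of 0 allows up to 3 counts, or 0.466 to 0.578 CPM depending on which of these 12 libraries is read, for counting error only. RIPK3, through which ZBP1 starts necroptosis, had 0 counts in every library. Of its exon bases, 11.1% are shared with another listed gene that was also at 0, so that reads there could be left out as ambiguous.

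MAVS, the mitochondrial adaptor to which MDA5 binds, lay between 98.2 and 129.0 CPM in all libraries, a 1.31-fold range and the smallest of the 9 tested members. It stood at 118.9, 126.1 and 122.3 CPM in sgNeg and at 104.9, 104.0 and 105.4 CPM in sgPRMT5-2. Although these 6 libraries did not overlap, the difference of −0.22 did not pass the threshold (95% interval −0.43 to −0.02, adjusted p = 0.0927), and 31% of all genes passed it in that comparison. With sgPRMT5-1 MAVS stood at 122.4, 105.4 and 103.1 CPM, with sgWDR77-1 at 118.2, 126.4 and 125.4 CPM, and with sgWDR77-2 at 129.0, 98.2 and 112.0 CPM, all overlapping the controls. With scaling by library totals alone MAVS passed with sgPRMT5-2 (−0.31, adjusted p = 0.0203) and in the PRMT5 knockout (−0.26, 0.0298, against 0.12 with TMM), and it did so with only the libraries compared (0.0145 and 0.0301). In the PRMT5 knockout it also passed without the first sgPRMT5-1 library (−0.25, adjusted p = 0.0453), the first sgWDR77-1 library (−0.21, 0.0435) or the first sgWDR77-2 library (−0.21, 0.0491), and with sgPRMT5-2 it passed without the first sgWDR77-1 or the first sgWDR77-2 library (0.0319 and 0.0415). Between the knockouts it passed with library totals alone (0.0465).

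TRIM25 is a ubiquitin ligase that activates the RNA sensor RIG-I. It stood at 124.6, 116.0 and 127.5 CPM in sgNeg and at 159.2, 149.4 and 154.3 CPM in sgPRMT5-2, without overlap. TRIM25 rose by 0.33 with sgPRMT5-2 (95% interval 0.11 to 0.56, adjusted p = 0.0234), but the call ended without any 1 of those 6 libraries (adjusted p of 0.0556 to 0.101) and with scaling by library totals alone (0.102). It stood at 138.4, 124.3 and 145.4 CPM with sgPRMT5-1, at 124.7, 148.8 and 165.3 CPM with sgWDR77-1, and at 163.5, 143.1 and 126.9 CPM with sgWDR77-2, all overlapping the controls. Without the first sgWDR77-1 library, TRIM25 passed in the WDR77 knockout (0.29, adjusted p = 0.0189, against 0.24 and 0.131 with all libraries), with sgWDR77-1 (0.36, 0.0212, against 0.25 with all libraries) and in the PRMT5 knockout (0.0362). Without the third sgWDR77-1 library the differences were 0.19 in the WDR77 knockout (adjusted p = 0.195) and 0.15 with sgWDR77-1 (0.425). The difference in the PRMT5 knockout, 0.24 with all libraries (adjusted p = 0.0716), also passed with only the libraries compared (0.0146). Of the TRIM25 exon bases, 6.73% are shared with other listed genes.

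TBK1 is the kinase that phosphorylates IRF3. It stood at 90.1, 89.6 and 85.1 CPM in sgNeg, at 104.3, 108.8 and 98.8 CPM in sgPRMT5-1, and at 116.1, 103.9 and 120.0 CPM in sgPRMT5-2. In the WDR77 knockout it stood at 131.0, 103.3 and 98.5 CPM with sgWDR77-1 and at 98.8, 95.9 and 106.9 CPM with sgWDR77-2. Every knockout library was above every control, and the 4 knockout conditions lay between mean levels of 100.5 and 113.3 CPM. TBK1 rose in the PRMT5 knockout by 0.30 (95% interval 0.11 to 0.49, adjusted p = 0.0225) and with sgPRMT5-2 by 0.36 (SE 0.10, adjusted p = 0.0123). The differences of 0.25 in the WDR77 knockout (adjusted p = 0.0948), 0.24 with sgPRMT5-1 (0.253), 0.32 with sgWDR77-1 (0.0605) and 0.19 with sgWDR77-2 (0.348) did not pass. Without the third sgWDR77-1 library TBK1 passed in the WDR77 knockout (0.29, adjusted p = 0.0399) and with sgWDR77-1 (0.40, 0.0246), and with library totals alone it passed with sgWDR77-1 (0.33, 0.0394). Without the first sgWDR77-1 library, the highest, the difference was 0.20 with sgWDR77-1 (adjusted p = 0.184) and 0.19 in the WDR77 knockout (0.1). The 2 knockouts differed by 0.04 (interval −0.11 to 0.20, adjusted p = 0.695). The call for the PRMT5 knockout ended in 7 of 15 cases (adjusted p of 0.0501 to 0.125), each without a control or a PRMT5 knockout library, and with scaling by library totals alone (0.0651); that for sgPRMT5-2 ended without the third sgNeg or the first or the third sgPRMT5-2 library (0.059 to 0.0847). Of the TBK1 exon bases, 3.83% are shared with other listed genes.

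IRF3, the transcription factor that TBK1 activates, stood at 29.1, 30.4 and 27.6 CPM in sgNeg, at 24.6, 24.3 and 33.6 CPM in sgPRMT5-1, and at 27.2, 26.7 and 30.5 CPM in sgPRMT5-2. It stood at 10.3, 26.3 and 28.5 CPM with sgWDR77-1 and at 34.3, 31.8 and 28.1 CPM with sgWDR77-2. The first sgWDR77-1 library was the lowest of all, with 56 counts, and the remaining libraries lay between 24.3 and 34.3 CPM. No comparison passed the threshold, and the largest difference from sgNeg, −0.55 with sgWDR77-1 (95% interval −1.03 to −0.06, adjusted p = 0.152), was −0.08 without that library (adjusted p = 0.807). Without the third sgWDR77-1 library it was −0.82 and passed (adjusted p = 0.0346), and sgWDR77-2 against sgWDR77-1 went from 0.65 (adjusted p = 0.127) to 0.92 (0.0424). IRF3 shares 19.3% of its exon bases with BCL2L12, and reads there cannot be told apart unless the counting used strand, which is not stated.

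ADAR, the editing enzyme that marks double-stranded RNA as the cell's own, stood at 672.0, 617.8 and 627.4 CPM in sgNeg, at 703.1, 604.3 and 651.0 CPM in sgPRMT5-1, and at 612.8, 615.2 and 589.7 CPM in sgPRMT5-2. It stood at 617.5, 712.3 and 809.1 CPM with sgWDR77-1 and at 813.5, 764.4 and 713.2 CPM with sgWDR77-2. The 3 sgWDR77-2 libraries were above all controls, the sgPRMT5-2 libraries were below them, and the other conditions overlapped the controls. ADAR was lower in the PRMT5 knockout than in the WDR77 knockout by −0.23 (95% interval −0.36 to −0.09, adjusted p = 0.0137), in which no single library ended the call. Neither knockout differed from sgNeg by the threshold: the difference was −0.02 in the PRMT5 knockout (interval −0.19 to 0.14, adjusted p = 0.865) and 0.20 in the WDR77 knockout (interval 0.04 to 0.37, adjusted p = 0.128). Without the first sgWDR77-1 library, whose level was that of the controls, the latter was 0.25 (adjusted p = 0.00956), with 0.26 for sgWDR77-1 (0.0379) and 0.25 for sgWDR77-2 (0.0241). Without the third sgWDR77-1 library, the highest of that condition, it was 0.15 in the WDR77 knockout (adjusted p = 0.187) and 0.05 with sgWDR77-1 (0.765), where all libraries gave 0.15 for that sgRNA.

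Set against all genes, the count of members that passed was above the share of the background in some comparisons and near it in others. Because the members were chosen with earlier results of these data known, these shares are no independent support. In the PRMT5 knockout 3 of 9 tested members passed, TBK1 higher and DHX58 and TLR3 lower, where 22.8% of genes passed, 12% higher and 10.8% lower. In the WDR77 knockout 2 passed, IFIH1 and IFI16, both higher, where 8.44% of genes passed, 2.89% higher and 5.55% lower. In the PRMT5 knockout against the WDR77 knockout 5 passed, IFIH1, DHX58, TLR3, IFI16 and ADAR, all lower in the former, where 27.1% of genes passed, 15.7% higher and 11.4% lower. With scaling by library totals alone, the share of higher genes among those that passed went from 52.7% to 34.2% in the PRMT5 knockout and from 57.8% to 41% between the knockouts.

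By sgRNA, 5 members passed with sgPRMT5-2, TRIM25 and TBK1 higher and IFIH1, DHX58 and TLR3 lower, where 31% of genes passed. None passed with sgPRMT5-1 in limma voom, where 2.87% of genes passed; 1 member, TBK1, had an unadjusted p under 0.05, and limma-trend also called 0. With sgWDR77-1, IFIH1 and IFI16 passed (background 9.48%), and with sgWDR77-2 only IFIH1 did (background 4.79%). Between the PRMT5 sgRNAs IFIH1, DHX58 and TLR3 differed, where 7.53% of genes did. Between the WDR77 sgRNAs no member passed in limma voom or limma-trend, where 2.41% of genes passed, and 2 members, IFIH1 and IRF3, had an unadjusted p under 0.05. Leaving out 1 library moved the count for the PRMT5 knockout between 1, without the first sgNeg library, and 5, without the first sgWDR77-1 library, and that for the WDR77 knockout between 1 and 4 with the same libraries.

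The 3 highest correlations among the tested members over the 15 libraries were those between the RNA sensors. Pearson r of log2 CPM was 0.847 for DHX58 and TLR3, 0.789 for IFIH1 and TLR3, and 0.755 for IFIH1 and DHX58, and the next was 0.702 for DHX58 and ADAR. These describe 15 libraries that share 5 conditions, and they carry no test. Among 11838 genes, PARP9 (r = 0.964) and IFI44L (0.956) were among the 3 most like IFIH1. The genes most like TLR3 were IDH1 (0.967), KREMEN1 (0.962) and CASP1 (0.961), and those most like DHX58 were APOL1 (0.94), NUP210 (0.934) and ABHD14B (0.928). IDH1 averaged 134.3 CPM in sgPRMT5-2 and between 238.4 and 298.1 CPM in the other conditions, and APOL1 averaged 58.2 CPM in sgPRMT5-2 and between 89.5 and 99.4 CPM elsewhere.

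The members were then set beside 91 other genes of the pathway in 8 lists, of which 75 were tested. These lists too were chosen with earlier results of these data known, so their shares are a description only. Of the 75, 27 passed in the PRMT5 knockout, or 36%, where 22.8% of all genes did, and in the WDR77 knockout 15, or 20%, where 8.44% did. The interferon-stimulated readout, a list of genes downstream of the sensors, gave 6 of these 27 and 7 of these 15. Of the 27, 12 were higher and 15 lower. The 12 became 6 with library totals alone and without the first or the second sgPRMT5-2 library, 7 without the third sgNeg or the third sgPRMT5-1 library, and 5 and 4 without the first and the second sgNeg library, and the 15 became 8 without the first sgNeg library. Of the 15 in the WDR77 knockout, 13 were higher and 2 lower. The 13 became 7 with only the libraries compared and without the third sgNeg library, 8 without the first or the second sgNeg library and 21 without the first sgWDR77-1 library, and the 2 became 1 without the third sgNeg library. By sgRNA, 32 passed with sgPRMT5-2 (42.7%, against 31% of all genes) and 1 with sgPRMT5-1 (1.33%, against 2.87%), with 11 at an unadjusted p under 0.05 there. The 1 call with sgPRMT5-1, a higher gene, became 0 or 2 in 19 of the 22 alternatives, and up to 3 were lower there. The PRMT5 knockout values that follow average these sgRNAs. Between the PRMT5 sgRNAs 13 differed (17.3%, against 7.53%), 3 higher and 10 lower with sgPRMT5-2. Leaving out 1 library moved the higher count to 1 without the first or the second sgPRMT5-1 or any sgPRMT5-2 library, to 5 without the third sgPRMT5-1 and to 6 without the first sgWDR77-1 library. It moved the lower count to 5 without the first sgPRMT5-1 library and to 6 without the second sgPRMT5-1 or the second sgPRMT5-2 library, and fitting only the libraries compared gave 9 and 19. Among other RNA sensors and effectors, 13 of 15 were tested. In the PRMT5 knockout 4 of them fell and 2 rose, with a median log2 fold change of −0.17, against 0.01 over all genes; in the WDR77 knockout 2 rose and none fell, with a median of 0.27. The share that passed was 46.2% and 15.4%, against 22.8% and 8.44% of all genes. The 2 that rose in the PRMT5 knockout became 1 with library totals alone and without the first or the second sgNeg, the third sgPRMT5-1 or any sgPRMT5-2 library, and the 2 in the WDR77 knockout became 0 without the third sgNeg library and 4 without the first sgWDR77-1 library. OAS2, which makes the activator of RNase L, averaged 10.7 CPM with sgPRMT5-2, 25.6 with sgPRMT5-1, 44.97 in the controls, 53.1 with sgWDR77-2 and 90.5 with sgWDR77-1, and it fell in the PRMT5 knockout by 1.43 (adjusted p = 0.00142). DDX60, a helicase that aids RNA sensing, averaged 161.9 CPM in the controls, 159.6 CPM with sgPRMT5-1 and 75.2 CPM with sgPRMT5-2. It fell by 1.11 with sgPRMT5-2 (adjusted p = 1.22e-05), where sgPRMT5-1 gave −0.04 (0.908), and it fell by 0.57 on average over both (0.00226). OASL lay on both sides of its control mean of 116.7 CPM, at 134.8 CPM with sgPRMT5-1 (0.21, adjusted p = 0.369) and 59.9 CPM with sgPRMT5-2, where it fell by 0.96 (1.1e-05). The sgRNAs differed by −1.17 (adjusted p = 4.1e-06), and their average of −0.37 passed (0.0156; 0.0806 without the third sgNeg library). RIGI, the best known partner of MDA5 and the target of TRIM25, had only 2 to 17 counts per library. It shares 43.2% of its exon bases with a listed gene on which no reads were counted, so that reads there could be left out as ambiguous. The level of RIGI can thus not be read from these counts. TLR8 had 0 counts in every library.

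Of the DNA sensors and nucleases, 9 of 12 were tested; 2 rose and 1 fell in the PRMT5 knockout, with a median of −0.02, and 1 rose and 1 fell in the WDR77 knockout, with a median of 0.08. That is 33.3% and 22.2%, against 22.8% and 8.44% of all genes. The 2 that rose became 1 without the first sgNeg or the third sgPRMT5-2 library and 0 without the second sgNeg library. CGAS, which makes the messenger that activates STING, rose in the PRMT5 knockout by 0.28 (adjusted p = 0.0144) and in the WDR77 knockout by 0.27 (0.0418), though the latter call ended in 12 of the 22 alternatives and the former in 3. XRCC6, a DNA end-binding protein, rose in the PRMT5 knockout by 0.31 (adjusted p = 0.00397; 0.0508 without the second sgNeg library), and STING1 fell there by 0.43 (0.035), a call that ended in 6 of the 22 alternatives (up to 0.112), namely with no filter and without the first or the second sgNeg, the third sgPRMT5-1 or the first or the third sgPRMT5-2 library. In the WDR77 knockout RNASEH2C, a subunit of the nuclease that removes RNA from DNA, fell by 0.44 (adjusted p = 0.0126; 0.097 without the third sgNeg library), with 28.9% of its exon bases shared with KAT5. TLR9 and TREX1 had 0 counts in every library, and 99.7% and 100% of their exon bases lie within other listed genes, so that reads there could be left out as ambiguous.

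Of the adaptors and kinases 14 of 15 were tested; 4 rose and 1 fell in the PRMT5 knockout, with a median of −0.0037, and 1 fell in the WDR77 knockout, with a median of 0.04. That is 35.7% and 7.14%, the latter near the 8.44% of all genes. The 4 that rose became 0 with library totals alone and without the second or the third sgNeg or the first or the second sgPRMT5-2 library, and 1 with no filter and without the first sgNeg or the third sgPRMT5-1 library. In the WDR77 knockout 1 also rose with a mean scaled count of at least 10 and with limma-trend. UNC93B1, which carries endosomal Toll-like receptors such as TLR3 to their place, fell in the WDR77 knockout by 0.50 (adjusted p = 0.00212) and in the PRMT5 knockout by 0.34 (0.0154; 0.0758 without the first sgNeg library). CHUK, an IKK kinase, rose in the PRMT5 knockout by 0.29 (adjusted p = 0.0191), a call that ended in 6 of 22 alternatives. TANK, which binds TBK1, was lower in the PRMT5 than in the WDR77 knockout by −0.37 (adjusted p = 0.015; 0.0607 without the third sgWDR77-2 library). All 12 ubiquitin ligases and negative regulators were tested; 3 rose and none fell in the PRMT5 knockout, with a median of 0.04, and 1 rose in the WDR77 knockout, with a median of 0.11. At 25% and 8.33% both shares are near those of all genes, 22.8% and 8.44%. Without the first sgNeg library 1 rose in the PRMT5 knockout, and without the first sgWDR77-1 library 2 fell there and 3 rose in the WDR77 knockout. In the PRMT5 knockout 1 fell with library totals alone and 2 with only the libraries compared. In the WDR77 knockout 0 rose with no filter and with only the libraries compared. TNFAIP3, a brake on NF-kB, rose in the PRMT5 knockout by 0.58 (adjusted p = 0.00365) and in the WDR77 knockout by 0.49 (0.0255), the latter ending in 7 of 22 alternatives (up to 0.213). OTUD5 rose in the PRMT5 knockout by 0.36 (adjusted p = 0.00966; 0.114 without the first sgNeg library). ISG15 rose with sgWDR77-2 by 0.75 (adjusted p = 0.0204), a call that ended without single libraries of sgNeg or of sgWDR77-2 (adjusted p up to 0.148).

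Of 9 interferon transcription factors 8 were tested. In the PRMT5 knockout 3 fell and 1 rose, with a median of −0.29, and in the WDR77 knockout 2 rose and none fell, with a median of 0.17. That is 50% and 25%, against 22.8% and 8.44% of all genes. The 3 that fell became 1 without the first sgNeg library, and the 2 that rose in the WDR77 knockout became 1 without the first or the second sgNeg library and with only the libraries compared. By sgRNA, 1 rose with sgPRMT5-1, the 1 call given earlier (12.5%, against 2.87% of all genes). With sgPRMT5-2, 2 rose and 3 fell (62.5%, against 31%). Between these sgRNAs 4 differed (50%, against 7.53%), 1 higher and 3 lower with sgPRMT5-2. IRF1, with 22.9% of its exon bases shared with other listed genes, fell in the PRMT5 knockout by 0.55 (adjusted p = 0.00107), and STAT2 by 0.43 (0.0131; up to 0.0814 without the first or second sgNeg library). STAT2 was also lower with sgPRMT5-2 than with sgPRMT5-1, a call that ended, among other settings, with no filter (−0.47, adjusted p = 0.111). IRF9, which acts with STAT2, had 0 counts in every library. Of its exon bases, 23.9% are shared with another listed gene that was also at 0, so that reads there could be left out as ambiguous. Whether IRF9 was expressed can thus not be read from these counts.

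None of the 8 interferon genes passed the filter on low counts: no library held more than 5 counts of any of them, and IFNG had 0 throughout. Of the IFNA1 exon bases, 63.4% are shared with MIR31HG. None of the 8 receptors and receptor kinases passed in either knockout against sgNeg in limma voom, with unadjusted p under 0.05 for 0 in the PRMT5 knockout and 2 in the WDR77 knockout; limma-trend also called 0 in both, and library totals alone or no filter called 1 in the WDR77 knockout, as did leaving out the first or the third sgWDR77-1 or the first sgWDR77-2 library. Among the receptors, IFNAR2 had only 7 to 22 counts per library and IL10RB 2 to 18. They share 27.7% and 21.6% of their exon bases with other listed genes, so that reads there could be left out as ambiguous. JAK1 rose with sgWDR77-1 by 0.34 (adjusted p = 0.0159), and IFNGR1 was lower in the PRMT5 than in the WDR77 knockout by −0.27 (adjusted p = 0.00839). The call for JAK1 ended without the second or the third sgNeg library and when only the libraries compared were fitted (adjusted p up to 0.123).

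Of the interferon-stimulated readout, 11 of 12 genes were tested. In the PRMT5 knockout 6 fell and none rose, with a median of −0.49, and in the WDR77 knockout 7 rose and none fell, with a median of 0.65. Over all genes 10.8% fell in the PRMT5 knockout and 2.89% rose in the WDR77 knockout, with medians of 0.01 and 0.00. By sgRNA, 7 fell with sgPRMT5-2, with a median of −0.81, and 0 passed with sgPRMT5-1 in limma voom, with a median of −0.36 and 2 at an unadjusted p under 0.05. With sgPRMT5-1, limma-trend called 1 lower, as did leaving out the first or the third sgWDR77-1 library, and fitting only the libraries compared called 2. Between the PRMT5 sgRNAs 4 were lower with sgPRMT5-2, and with only the libraries compared 8 were lower and 1 was higher. With each WDR77 sgRNA 5 rose, with medians of 0.71 and 0.60. Of all genes, 31% passed in either direction with sgPRMT5-2, 2.87% with sgPRMT5-1 and 7.53% between these sgRNAs. With sgWDR77-1 and sgWDR77-2 the shares were 9.48% and 4.79%. All 11 were lower in the PRMT5 than in the WDR77 knockout, with a median of −1.38, against 0.02 over all genes. Markers moved in that contrast too, with log2 differences of 1.02 for KRT5 (adjusted p = 3.45e-06), −0.44 for KRT17 (3.35e-05), −0.56 for CDH5 (0.0021), −1.41 for VWF (0.0107) and −0.92 for PMEL (0.0252), and their part in it was not tested. The call for PMEL ended with no filter and without the second library of sgPRMT5-1, sgPRMT5-2 or sgWDR77-2 (adjusted p up to 0.101). Under each of the 22 alternatives none rose in the PRMT5 knockout and none fell in the WDR77 knockout. Without the first sgNeg library the counts were 3 lower and 4 higher in place of 6 and 7, both knockouts sharing these controls, and fitting only the libraries compared also gave 4 higher.

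IFI44L averaged 21.3 CPM with sgPRMT5-2, 42.5 with sgPRMT5-1, 50.1 in the controls, 101.6 with sgWDR77-2 and 159.4 with sgWDR77-1. It rose in the WDR77 knockout by 1.29 (adjusted p = 0.000279) and fell in the PRMT5 knockout by 0.75 (0.022), the latter ending in 5 of 22 alternatives (adjusted p up to 0.114). RSAD2, which makes the antiviral protein viperin, averaged 5.11 CPM with sgPRMT5-2, 9.06 with sgPRMT5-1, 15.1 in the controls, 22.9 with sgWDR77-2 and 24.9 with sgWDR77-1. It fell in the PRMT5 knockout by 1.13 (adjusted p = 0.000175) and rose in the WDR77 knockout by 0.65 (0.0116, and up to 0.122 without the first or the third sgNeg library or when only the libraries compared were fitted). IFIT3 rose in the WDR77 knockout by 0.31 (adjusted p = 0.0307), a call that ended in 6 of 22 alternatives, and IFIT3 fell by 0.70 with sgPRMT5-2 (adjusted p = 4.21e-05). IFIH1 followed the same order of conditions as IFI44L apart from sgPRMT5-1, which for IFIH1 lay level with the controls.

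**Figure D5:**
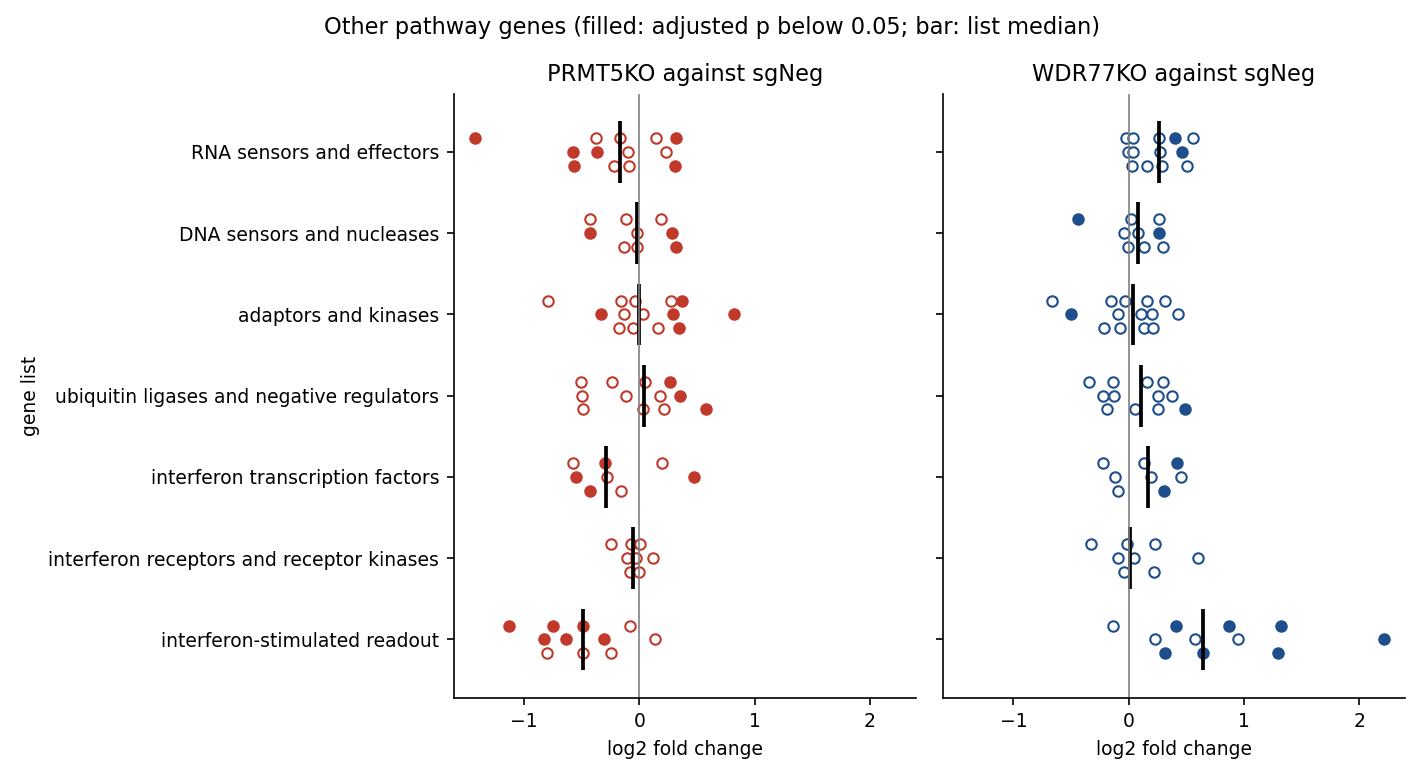
Log2 fold change (x axis) of every tested gene in 7 pathway lists (y axis), in 1 panel for the PRMT5 knockout and 1 for the WDR77 knockout against sgNeg; black bars are list medians and filled points have an adjusted p under 0.05. The interferon-stimulated readout lies mostly below 0 in the PRMT5 knockout and above 0 in the WDR77 knockout.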

How the data were processed

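Bulk RNA was sequenced in 15 libraries of HSC-5 cells. By the paper's methods the authors aligned single-end reads with STAR to hg38 and counted them per gene with htseq-count; strand setting and annotation release are not given in the sources used here, and the kit is named as TruSeq Stranded mRNA in the labels and as another TruSeq kit in the methods. The deposited values are raw counts per gene. The 5 summary entries were left out of totals: reads outside genes made up 2.75 to 7.16% of all entries, ambiguous reads 7.09 to 7.93% and multiply aligned reads 9.49 to 13.1%.

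Counts were scaled by TMM (trims 0.3 and 0.05), genes with a mean scaled count of at least 3 were kept, and 1 limma voom model (limma 3.58.1, R 4.3.3) with a coefficient per condition was fitted to all libraries, with 9 contrasts, an F test and Benjamini-Hochberg adjustment. The step was tested on simulated counts. Groups came from the labels. Gene positions came from GENCODE 44 by Ensembl ID without version (60507 of 60649 matched). Levels per kb used the union of exons. Likeness used a prior count of 2 and genes with a mean scaled count of at least 10. Intervals and floors cover counting error or spread between samples only. Replicate pairs differed beyond sampling noise (chi-square per degree of freedom 1.58 to 19.4). Alternatives were 7 settings and leaving out each of 15 libraries. Named were all members, both targets, up to 3 genes of each list with the smallest F test p past the threshold, list genes at 0 and the 3 most alike genes of IFIH1, TLR3 and DHX58; STING1, RIGI, KAT5 and marker genes were named after their values were seen. The values of 1 gene that this rule names are not reported here. The members and lists were chosen with earlier results of these data known.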

Additional observations from a re-analysis of the deposited data

Results flagged for a closer look

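In the 6 libraries of a knockout, the gap of the most distant library to its nearest neighbour was set against the whole range, and 4 of 18 pairs of member and knockout passed Dixon's 95% critical value for 6 samples, which chance passes in about 1 in 20. The first sgWDR77-1 library stood apart for IFI16 (gap over range 0.636), IRF3 (0.666) and TBK1 (0.686), high for IFI16 and TBK1 and low for IRF3. The first sgPRMT5-1 library stood apart for MAVS, reaching 122.4 CPM where the other PRMT5 knockout libraries lay within 103.1 to 105.4 CPM; its ratio of 0.879 was computed on 6 libraries of 2 sgRNAs.

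Effects of the 2 PRMT5 sgRNAs differed in limma voom for IFIH1 (−0.46), DHX58 (−1.03) and TLR3 (−0.74), each lower with sgPRMT5-2.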

How the results depend on the processing

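Of 90 results for the tested members (9 contrasts and the F test), direction and side of the threshold were kept by 90 with a mean scaled count of at least 10, by 88 with the replicate number as a block, 87 with limma-trend, 86 with RLE size factors, 86 with no filter beyond 1 count, 78 with library totals alone, and 73 of the 81 that could be had when only the libraries compared were fitted, which gives no F test. In no setting did a result that passed change direction. The calls that did change are given with the genes above, apart from those under the replicate block, which follow, and the cause was not tested. With a library left out, a condition of 2 libraries still uses the spread pooled over all conditions by limma. Depth limits ZBP1, with 0 to 2 counts, DHX58, with 30 to 113, and the interferon genes, with at most 5. Over the scalings tried, the median over all genes was farthest from 0 in sgPRMT5-2 with library totals alone, at −0.084. That scaling took the share of higher genes among those that passed from 43.8% to 27.1% in sgPRMT5-1, from 52.6% to 37.9% in sgPRMT5-2 and from 76.4% to 59.8% between the WDR77 sgRNAs.

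The replicate numbers did not pair the samples: over 30 pairs of same-numbered libraries, r of deviations from the group means lay between −0.332 and 0.272, with 4 over 0.1. Between differently numbered libraries r reached 0.456, for the third sgPRMT5-1 and the first sgWDR77-2 library, and 0 libraries correlated best with their own number in each other group. With the replicate block, IFI16 between the knockouts was −0.23 (adjusted p = 0.0579) and the F test of ADAR gave 0.0592; no other result for a member changed side, and among other named genes those whose call ended were CGAS in the WDR77 knockout (adjusted p = 0.055), ISG15 between the WDR77 sgRNAs (0.0566), STAT2 between the PRMT5 sgRNAs (0.0599), DSG3 in sgPRMT5-1 (0.051) and COL1A1 in sgPRMT5-2 (0.0691). Genes of all lists higher with sgPRMT5-2 than with sgPRMT5-1 went from 3 to 1 and those higher in sgPRMT5-1 from 1 to 0, and DNA sensors and nucleases higher in the WDR77 knockout from 1 to 0; limma-trend gave 2, 0 and 1 for these.

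With only the libraries compared, the members that passed were 5 in the PRMT5 knockout (3 with all libraries), 1 in the WDR77 knockout (2), 1 in sgWDR77-1 (2) and 2 in sgWDR77-2 (1). No share of all genes is given here for such a fit in the PRMT5 knockout and in sgWDR77-2. Their member counts are thus not set against a background. Genes that passed were 682 in the WDR77 knockout (1187), 385 in sgWDR77-1 (1333), 2690 between the PRMT5 sgRNAs (1059) and 17 between the WDR77 sgRNAs (339); such a fit has fewer samples, and the cause of the rise was not tested. Library totals alone gave 219 genes between the WDR77 sgRNAs, and no filter gave 0 members in sgWDR77-2 in limma voom (4 with an unadjusted p under 0.05; limma-trend called 1).

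Differences near 0 that did not pass changed sign. With RLE size factors these were IFIH1 (−0.0030) and ADAR (−0.0017) in sgPRMT5-1, TLR3 in sgWDR77-2 (−0.012) and TRIM25 between the knockouts (−0.021). With library totals alone they were IFIH1 (−0.037) and ADAR (−0.035) in sgPRMT5-1, TLR3 in sgWDR77-2 (−0.031), and TRIM25 (−0.060) and TBK1 (−0.019) between the knockouts. TLR3 in sgWDR77-2 was −0.0019 with limma-trend and −0.0042 with only the libraries compared.

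Leaving out each library in turn gave member counts of 1 to 5 in the PRMT5 knockout, 1 to 4 in the WDR77 knockout, 0 in sgPRMT5-1, 3 to 6 in sgPRMT5-2, 1 to 5 in sgWDR77-1, 0 to 3 in sgWDR77-2, 1 to 3 in sgPRMT5-2 against sgPRMT5-1, 0 to 1 in sgWDR77-2 against sgWDR77-1, 4 to 5 in the PRMT5 against the WDR77 knockout and 3 to 7 over the 5 conditions. The counts of genes were 1918 to 4157 in the PRMT5 knockout, 743 to 1575 in the WDR77 knockout, 116 to 858 in sgPRMT5-1, 3109 to 5289 in sgPRMT5-2, 677 to 1496 in sgWDR77-1, 393 to 1347 in sgWDR77-2, 338 to 1978 in sgPRMT5-2 against sgPRMT5-1, 45 to 505 in sgWDR77-2 against sgWDR77-1, 2872 to 4349 in the PRMT5 against the WDR77 knockout and 3551 to 5867 over the 5 conditions. In sgPRMT5-1 limma-trend also called 0 members, with 1 at an unadjusted p under 0.05.

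Differences whose sign depended on a single library had these ranges over the left-out libraries, and none of them passed with all libraries. For IFIH1 this was −0.094 to 0.089 in sgPRMT5-1. For DHX58 this was −0.33 to 0.17 in sgWDR77-2 against sgWDR77-1. For MAVS these were −0.025 to 0.048 in sgWDR77-1 and −0.10 to 0.00088 in sgPRMT5-2 against sgPRMT5-1. For IFI16 these were −0.10 to 0.027 in sgPRMT5-2 against sgPRMT5-1 and −0.28 to 0.051 in sgWDR77-2 against sgWDR77-1. For TLR3 these were −0.017 to 0.087 in the WDR77 knockout, −0.11 to 0.045 in sgPRMT5-1 and −0.13 to 0.072 in sgWDR77-2. For ADAR these were −0.045 to 0.067 in sgPRMT5-1 and −0.0064 to 0.20 in sgWDR77-2 against sgWDR77-1. For TRIM25 these were −0.14 to 0.079 in sgWDR77-2 against sgWDR77-1 and −0.076 to 0.044 in the PRMT5 against the WDR77 knockout. For IRF3 these were −0.35 to 0.011 in the WDR77 knockout, −0.031 to 0.21 in sgPRMT5-2 against sgPRMT5-1 and −0.11 to 0.27 in the PRMT5 against the WDR77 knockout. For TBK1 this was −0.0080 to 0.084 in the PRMT5 against the WDR77 knockout.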
